A study of Mus musculus with 22 samples.

Results

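The passage from ana/telophase to early-G1 was followed in mouse erythroblasts that kept their CTCF, by setting the early-G1 contact map against the ana/telophase map of cells not given auxin. Those maps rest on 4 of the 22 libraries of the series, 2 replicates for each stage. All rows of the deposited calls entered the comparison, which gave 6376 domain boundaries and 16370 chromatin loops, and every one of them had a value above 0 in both maps. The series as a whole used in situ Hi-C, in which DNA fragments that lie near each other in the nucleus are ligated and sequenced, to map contacts from prometaphase to mid-G1, with and without the degradation of CTCF.

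All cells were G1E-ER4, a subline of the GATA1-null proerythroblast line G1E, with a C-terminal AID-mCherry fusion on both CTCF alleles, so that auxin removes the protein where the TIR receptor is expressed. Cells were held in prometaphase with 200 ng/ml nocodazole and released. The ana/telophase libraries carry a time label of 30 min, while the treatment protocol gives 25 min, and the early-G1 libraries carry 60 min. Per the methods, ana/telophase cells expressed the TIR receptor with a GFP fused to a mitotic-specific degron, and were sorted on reduced GFP and the DNA content of undivided cells, whereas early-G1 cells carried the construct without that degron and were sorted on the DNA content of divided cells. Per the labels, more cells entered an early-G1 library than an ana/telophase library. The construct, the sort and the cell input therefore changed together with the stage and cannot be told apart from it.

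In the tables used, the authors' values come from the merged replicates of a stage, 2 of them, so each boundary and each loop has 1 value per stage, without a replicate error, and no test between the stages was possible from these tables. Maps of single replicates were not analysed here. Each median stands with an SD over the medians of the 20 single chromosomes, which describes the spread over the genome and not between cultures. A boundary or loop is said to have risen or fallen where its log2 ratio of early-G1 over ana/telophase reached 0.5 in either direction, a 1.41-fold change. The number of contacts behind a single value cannot be read from the tables used, and no interval can be put on a single value.

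In interphase, the cohesin ring is thought to extrude chromatin into a growing loop until it meets CTCF bound with its motif pointing towards the ring. Pairs of such sites then appear in a contact map as loops with focal signal at their anchors, and the sites themselves as domain boundaries across which few contacts form. Cis-regulatory elements (CREs), that is promoters and enhancers, also contact each other without CTCF. Compaction in mitosis erases most of these features, much of the CTCF and cohesin comes off the chromosomes, and the features return as the daughter nuclei form. The deposited loop categories separate structural loops, with CTCF and cohesin at both anchors and CREs at no more than 1 of them, from dual-function loops, with CTCF and cohesin and CREs at both anchors, from CRE loops, with CREs at both anchors but CTCF and cohesin not at both, and from other loops.

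The sequences below are those of the CTCF core consensus matches at the anchors of structural loops whose rise in this step was among the largest of loops with a single match, in the required direction, in the 30 kb around each anchor summit. They are shown so that the letters and the direction of the matches can be read for single loops. Each is written 5′ to 3′ on the strand of the match (NCBIM37, which is mm9), with the 14 matched bases in capitals and 8 flanking bases in lower case on each side.
Loop of 1250 kb on chromosome 19, upstream anchor, chr19:39056646-39056675, plus strand, no protein-coding gene: acagccatCCACTAGAGGGCGGgctttgac
Loop of 1250 kb on chromosome 19, downstream anchor, chr19:40300097-40300126, minus strand, intron of Pdlim1: acccacagCCAGCAGGTGGCAGtgtaggct
Loop of 1140 kb on chromosome 6, upstream anchor, chr6:41087164-41087193, plus strand, no protein-coding gene: gtcactggCCACTAGAGGGCACtgtggatt
Loop of 1140 kb on chromosome 6, downstream anchor, chr6:42207467-42207496, minus strand, no protein-coding gene: gtgtgagaCCAGCAGAGGGCACcatcttgt
Loop of 200 kb on chromosome X, upstream anchor, chrX:67627791-67627820, plus strand, no protein-coding gene: ggaatgggCCAGCAGATGGCACtgtgagca
Loop of 200 kb on chromosome X, downstream anchor, chrX:67822975-67823004, minus strand, no protein-coding gene: ggaatgggCCAGCAGATGGCACtgtgagca
For contrast, loop of 180 kb on chromosome 15, upstream anchor, chr15:12301064-12301093, plus strand, intron of Pdzd2: gcttttcaCCAGCAGGTGGCACcgcttgct
For contrast, loop of 180 kb on chromosome 15, downstream anchor, chr15:12508172-12508201, plus strand, intron of Pdzd2: ctcagaggCCAGTAGAGGGCGCtggatccc

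The first 3 loops have matches that face each other, plus strand upstream and minus strand downstream, and the fourth has 2 matches on the plus strand within Pdzd2, a gene for a PDZ domain protein. The loop on chromosome 19 had a strength of 1.70 in ana/telophase and 4.27 in early-G1, with 6.35 in mid-G1 to follow, and its log2 change was 1.33. The loop on chromosome 6 went from 1.67 to 4.06, and that on chromosome X from 2.01 to 4.41. The 30 bases printed for the anchors of the chromosome X loop are identical at all 30 positions, in inverted orientation, so reads from these bases alone do not tell the anchors apart, and its value is uncertain. The loop with both matches on the plus strand went from 1.505 to 2.49, a log2 change of 0.73. In +auxin cells, from which CTCF had been removed, the loop on chromosome 19 went from 0.689 to 1.43 and that on chromosome 6 from 1.31 to 2.77, log2 changes of 1.05 and 1.08, so both rose there too, at lower levels. The loop on chromosome X went from 1.57 to 0.968 with auxin, and that in Pdzd2 from 1.44 to 1.21.

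Boundaries strengthened in this step across the genome. Boundary strength, ΔIS, is the highest unlogged insulation score near a boundary minus the score at the boundary. The scores searched include that at the boundary, so ΔIS is never negative, and a value above 0 need not mean insulation. In prometaphase its median was 0.094. The median ΔIS of the 6376 boundaries was 0.277 in ana/telophase and 0.422 in early-G1, and the median of the single log2 changes was 0.60 (SD 0.03 over chromosomes), with chromosome medians between 0.55 and 0.66. Of all boundaries 83.7% were higher in early-G1, 3749 rose, which is 58.8%, and 497 fell, which is 7.79%. The authors left out the boundaries of cluster5, 719 in all, as mostly spurious. Without them 4.58% fell, and 1.235% did so among boundaries with a ΔIS of at least 0.1 in both maps, a limit that itself removes falls. The change in mean ΔIS amounted to 38.5% (SD 1.60) of the whole increase from prometaphase to mid-G1, with 48.1% (SD 2.06) in the step before and 13.3% (SD 2.52) in the step after. Those 3 steps share maps, and their values are given side by side only.

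**Figure D1:**
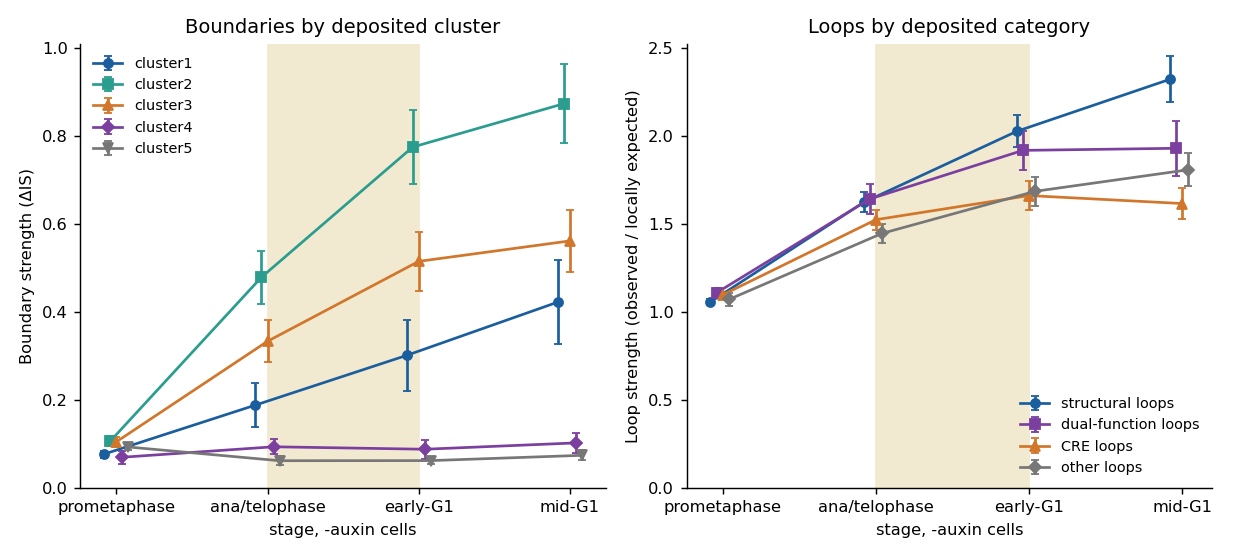
Median boundary strength of the 5 deposited clusters (left, ΔIS) and median loop strength of the 4 deposited categories (right, observed over locally expected contacts) at 4 stages of -auxin cells, with the SD of chromosome medians as error bars and the step from ana/telophase to early-G1 shaded. Cluster2 boundaries went from 0.479 to 0.774 and structural loops from 1.62 to 2.03 in the shaded step, while cluster5 boundaries stayed at 0.062.

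The deposited clusters, which the authors made from these same maps in both treatments, differed in this step, so their separation is partly built in. Cluster2, the 2036 boundaries with the highest levels, went from a median ΔIS of 0.479 to 0.774, and its log2 changes had a median of 0.69 (SD 0.04), and 72.5% of its members rose. Cluster1, 1300 boundaries that the authors class as CTCF dependent, started lower, at 0.188, and reached 0.301, with a nearly equal log2 change of 0.68 (SD 0.07) and 63.5% risen. Cluster3, 1731 boundaries classed as insensitive to CTCF loss, went from 0.333 to 0.515, a log2 change of 0.58 (SD 0.04), with 59.3% risen. The remaining clusters moved little as groups, since the median of the 590 boundaries of cluster4 was 0.093 in ana/telophase and 0.088 in early-G1, and the 719 of cluster5 stood at 0.062 in both maps. Their median log2 changes of 0.09 and -0.02 were smaller than their SDs over chromosomes, both 0.28. These weak boundaries supplied most of the falls, 149 from cluster4 and 238 from cluster5 out of 497, at levels where a small difference in ΔIS is a large ratio.

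The same step in +auxin cells was measured in separate libraries. There the median log2 change of all boundaries was 0.57 (SD 0.04), with 55.6% risen and 9.77% fallen. Cluster1 changed less with auxin, by 0.29 (SD 0.17) against 0.68 in -auxin cells, and the -auxin value was the higher on 20 of 20 chromosomes. Its +auxin ΔIS went only from 0.092 to 0.111. Cluster2 changed by 0.65 (SD 0.06) in +auxin cells, and the -auxin value was higher on 15 of 20 chromosomes. For cluster3 the order turned, with 0.68 (SD 0.04) in +auxin against 0.58 in -auxin cells, and the -auxin value was higher on 0 of 20 chromosomes. Cluster4 also changed more with auxin, by 0.51 (SD 0.17) against 0.09, from a ΔIS of 0.128 to 0.173, and the -auxin value was higher on 1 of 20 chromosomes. Cluster5 changed by -0.22 (SD 0.30) with auxin, less than its SD, and the -auxin value was higher on 15 of 20. The tables hold 1 merged value per stage and treatment, so these differences between treatments were not tested. The authors made the clusters from these same maps in both treatments, so the order of the treatments within a cluster is partly built in.

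**Figure D2:**
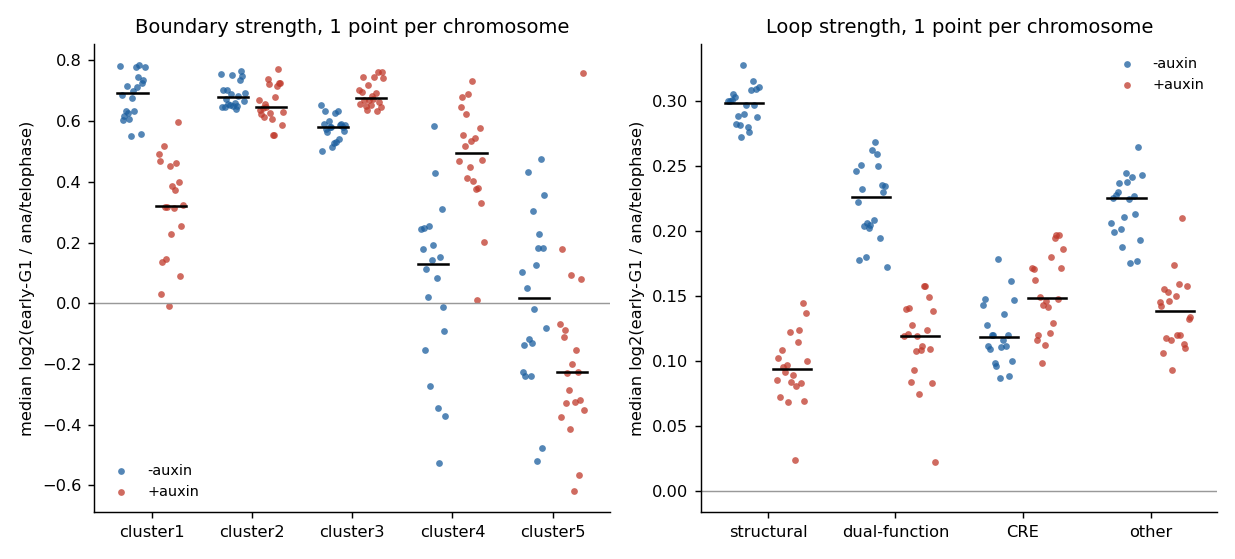
Median log2 ratio of early-G1 over ana/telophase for boundary strength (left, by deposited cluster) and loop strength (right, by deposited category), with 1 point for each of 20 chromosomes in -auxin (blue) and +auxin (red) cells and a bar at the median of the points. The -auxin points of structural loops, between 0.27 and 0.33, all lie above the +auxin points of the same category, between 0.02 and 0.14, whereas the points of CRE loops overlap.

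Where a boundary lies went with how much it strengthened. A boundary was taken as near a feature within 20 kb. Boundaries near the anchor of a structural or dual-function loop and near the transcription start of a protein-coding gene, 1488 in all, had a median ΔIS of 0.501 in ana/telophase and 0.818 in early-G1, a log2 change of 0.70 (SD 0.04), and 75.8% rose, against 58.8% of all boundaries. Those near such an anchor alone, 972, changed by 0.69 (SD 0.06), and those near a start alone, 1247, by 0.59 (SD 0.06). The 2669 boundaries near neither went from 0.118 to 0.142, a change of 0.40 (SD 0.09), with 44.8% risen and 15.5% fallen. A boundary with both neighbours had the larger chromosome median than one near a start alone on 19 of 20 chromosomes, and than one with neither on 20 of 20. Loops and boundaries were called on the same maps, so nearness to a loop anchor is not independent of boundary strength.

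Within cluster1 the gap was wider. The 274 boundaries near both features changed by 0.79 (SD 0.11) and the 516 near neither by 0.42 (SD 0.18), while in +auxin cells the values were 0.48 and 0.01. The gap was narrower in clusters 2 and 3. In cluster2 the corresponding changes in -auxin cells were 0.72 (SD 0.05) for 777 boundaries and 0.64 (SD 0.12) for 439. In cluster3 they were 0.63 (SD 0.09) for 391 boundaries and 0.54 (SD 0.11) for 689. The 1260 boundaries with a CTCF consensus match within 20 kb changed by 0.66 (SD 0.07), and the 5116 without one by 0.58 (SD 0.05).

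Single boundaries show the range within the clusters, and the largest changes named here are among boundaries with a ΔIS of at least 0.1 in both maps, outside chromosomes 3 and 18. The boundary at chr2:127960001-127970000, in an intron of Bcl2l11, which encodes the pro-apoptotic protein BIM, belongs to cluster1. Its ΔIS was 0.083 in prometaphase, then 0.142 in ana/telophase and 0.613 in early-G1, and mid-G1 gave 0.858. In +auxin cells it went from 0.092 in ana/telophase to 0.218 in early-G1. It lies near a CTCF loop anchor, and its log2 change of 2.11 was the second largest of cluster1 within those limits. In cluster2, the boundary at chr7:4470001-4480000, which holds the start of Tnni3, the gene of cardiac troponin I, and lies near that of Tnnt1, went from 0.185 to 0.698 and stood at 0.548 in mid-G1, and with auxin it went from 0.236 to 0.394. The cluster2 boundary at the start of Spata19, chr9:27200001-27210000, went from 0.101 to 0.454, and with auxin from 0.047 to 0.284.

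Within the same limits, the cluster3 boundaries with the largest rises strengthened in both treatments. The boundary at chr12:77440001-77450000, over an exon of the zinc finger gene Zbtb25 and near the start of Akap5, went from 0.117 to 0.511 in -auxin cells and from 0.234 to 0.815 in +auxin cells. The cluster3 boundary with the largest change, at chr12:12650001-12660000 where no protein-coding gene is annotated, went from 0.102 to 0.530, and from 0.098 to 0.332 with auxin. Among falls, the cluster3 boundary at chrX:98710001-98720000, near the start of Taf1, which encodes a subunit of the general transcription factor TFIID, went from 0.680 to 0.389 and was at 0.607 in mid-G1, while with auxin it went from 0.361 to 0.563. In cluster1 the largest fall within those limits, which leave out weaker boundaries with larger log2 falls, was at chr11:90040001-90050000, in an intron of Mmd, from 0.364 to 0.202, followed by 0.387 in mid-G1, and with auxin it went from 0.101 to 0.047. In cluster4, the boundary at the start of Ell2, a gene for an RNA polymerase II elongation factor, at chr13:75840001-75850000, went from 0.130 to 0.309, and with auxin from 0.372 to 0.543.

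Loops strengthened less than boundaries on the log2 scale, though the strengths are in other units. Loop strength is the ratio of observed to locally expected contacts around the summit, so that 1 means no enrichment. The median over all loops was 1.55 in ana/telophase and 1.81 in early-G1, and the median log2 change was 0.22 (SD 0.01), with chromosome medians between 0.20 and 0.24. Of the 16370 loops, 82.6% were higher in early-G1, 2095 rose, which is 12.8%, and 115 fell, which is 0.703%. This step held 30.8% (SD 1.33) of the increase in mean loop strength from prometaphase to mid-G1, against 54.5% (SD 1.64) in the step before and 14.7% (SD 2.05) in the step after.

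Structural loops strengthened most. Their median went from 1.62 to 2.03, a log2 change of 0.30 (SD 0.01), 92.0% of the 4837 were higher in early-G1, and 947 rose, 19.6% against the 12.8% of all loops. Only 5 of them fell. Dual-function loops, 3370 in all, went from 1.64 to 1.92, a change of 0.23 (SD 0.03), with 12.2% risen and 0.504% fallen. The 3521 other loops, from 1.45 to 1.69, changed by 0.22 (SD 0.02), with 12.4% risen. CRE loops changed least, from 1.52 to 1.66, a log2 change of 0.12 (SD 0.02) that turned to -0.10 when set against other loops, and of 4642 members 303 rose, 6.53%, and 58 fell, 1.25%. The chromosome median of structural loops was above that of CRE loops on 20 of 20 chromosomes, and so was that of dual-function loops.

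The direction for CRE loops depends on what a map is scaled to. Set against the median change of other loops, 0.22, CRE loops were lower by a median log2 of -0.10, and calls past 0.5 numbered 69 up and 244 down in place of 303 and 58. On that scale structural loops remained higher, by 0.08, with 304 up and 32 down, and dual-function loops stood at 0.01, with 95 up and 82 down. Over all loops the calls on that scale were 589 up and 464 down. The shift is the same for every loop, so the order of the categories is the same on both scales.

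The 3 steps of the exit from mitosis were shared out differently among the categories. In this step CRE loops made 27.6% (SD 4.33) of their increase in mean strength from prometaphase to mid-G1, dual-function loops 33.0% (SD 3.52) and structural loops 30.2% (SD 1.86). The step before held 77.7% (SD 4.98) for CRE loops and 44.7% (SD 2.23) for structural loops. After early-G1 the mean of CRE loops changed by -5.33% (SD 6.00) of that increase, less than its SD, while structural loops made a further 25.1% (SD 3.30).

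In +auxin cells the same step gave a median log2 change of 0.13 (SD 0.02) over all loops, with 7.75% risen and 1.87% fallen. Structural loops changed by 0.09 (SD 0.03), from 1.15 to 1.23, and the -auxin value was the higher on 20 of 20 chromosomes. Dual-function loops changed by 0.12 (SD 0.03), again with the -auxin value higher on 20 of 20. CRE loops changed by 0.15 (SD 0.03) in +auxin cells against 0.12 in -auxin cells, and the -auxin value was higher on only 3 of 20 chromosomes. Of the CRE loops 1410 were not called in any -auxin map, and these changed by 0.04 (SD 0.05) in -auxin cells. CRE loops called in -auxin cells changed by 0.16 there. Their +auxin change was not computed, so the order between treatments depends on which loops are counted and is not known for them.

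The size of the changes can be set against the difference between maps of separate libraries at 1 stage, which includes the effect of auxin. Among CRE loops, 9.0% differed past a log2 of 0.5 between the treatments in ana/telophase and 17.0% in early-G1, while 7.78% did so between the stages in -auxin cells. The count of single CRE loops past that fold is therefore no larger than that between maps of 1 stage. Over all loops the shares were 27.0% and 40.3% between treatments and 13.5% between stages, and over all boundaries 53.5% and 54.3% against 66.6%. For cluster3 boundaries they were 19.2% and 10.3% against 60.3%. The authors class these as insensitive to CTCF loss from the same maps, so small shares between treatments are partly built in.

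By the authors' label of first detection in -auxin cells, which comes from these maps, 2900 loops were called from ana/telophase on, 5592 from early-G1 and 5491 from mid-G1, 2386 were not called in any -auxin map, and 1 was called in prometaphase. Loops first called in early-G1 had a median log2 change of 0.31 (SD 0.02) and those already called in ana/telophase 0.15 (SD 0.04), a difference that the labels fix in part. Structural loops called in ana/telophase still went from 2.28 to 2.79, a change of 0.26 (SD 0.06). CRE loops called in ana/telophase did not, with medians of 1.79 in both maps and a change of 0.03 (SD 0.05). Those first called in mid-G1 had already changed by 0.25 (SD 0.02) among structural loops, from 1.501 to 1.81.

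Longer loops strengthened more. Among structural loops, the median log2 change was 0.27 (SD 0.04) at 70 to 100 kb, 0.31 (SD 0.04) at 300 to 500 kb and 0.39 (SD 0.11) at 1000 to 2000 kb, and the share that rose went from 10.2% to 36.3%. Structural loops above 500 kb had a larger chromosome median than those up to 200 kb on 17 of 20 chromosomes, 0.35 for 1004 loops against 0.28 for 2029. In +auxin cells the order was absent, with 0.08 above 500 kb and 0.11 up to 200 kb, and 9 of 20 chromosomes. The spread over chromosomes widened with size too, since the SD was 0.04 in the shortest class of 754 structural loops and 0.11 in the longest class of 245.

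The longest CRE loops changed more than the shortest in both treatments, although in -auxin cells the medians of the 3 shortest classes, 0.10, 0.09 and 0.09 at 70 to 100, 100 to 200 and 200 to 300 kb, did not rise with size. In -auxin cells those up to 200 kb changed by 0.10 and those above 500 kb by 0.21, with 19 of 20 chromosomes in that order, and in +auxin cells by 0.13 and 0.22, with 18 of 20. The 398 CRE loops of 1000 to 2000 kb changed by 0.24 (SD 0.10), from 1.65 to 1.97, and 19.1% of them rose. Dual-function loops changed by 0.21 up to 200 kb and by 0.30 above 500 kb, with 17 of 20 chromosomes in that order, and in +auxin cells by 0.096 and 0.21, with 16 of 20.

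**Figure D3:**
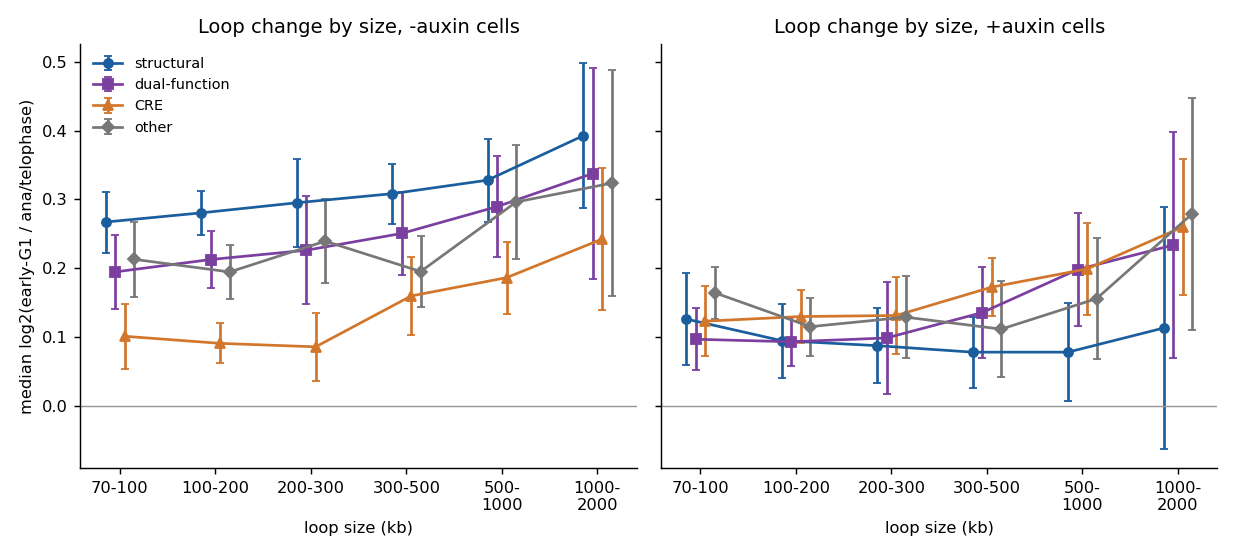
Median log2 ratio of early-G1 over ana/telophase in 6 classes of loop size (kb) for the 4 loop categories, in -auxin (left) and +auxin (right) cells, with the SD of chromosome medians as error bars. Structural loops lie on top in every size class of -auxin cells, from 0.27 to 0.39, and between 0.08 and 0.13 in +auxin cells.

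Structural loop anchors held CTCF consensus matches more often than the genome at large, and most oriented pairs of matches faced each other. A search for the 14-letter CTCF core consensus on both strands of the genome gave 6559 matches, and 6.78% of all 30 kb windows of the genome held at least 1, against 35.4% of the windows around structural loop anchors, 31.9% at dual-function, 14.2% at other and 11.3% at CRE loop anchors. Where both anchors of a structural loop had matches in a single direction, 347 of 553 pairs faced each other, 190 pointed the same way and 16 faced away. Structural loops with facing matches went from 1.68 to 2.24, a median log2 change of 0.35 (SD 0.12), and those with matches in the same direction from 1.61 to 1.94, a change of 0.27 (SD 0.13). The facing pairs had the larger median on 14 of 20 chromosomes, a difference within the SD over chromosomes. In +auxin cells the facing pairs stood at 1.16 in ana/telophase and 1.22 in early-G1.

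Facing matches were less frequent in dual-function loops, 141 of 306 oriented pairs, whose change was 0.30 (SD 0.11), from 1.85 to 2.38. The 127 dual-function loops with matches in the same direction changed by 0.25 (SD 0.23), from 1.60 to 1.92. Among CRE loops only 35 of 4642 had oriented matches at both anchors. A match of these letters is no measure of binding, and 2056 structural loops had no match at either anchor although the authors list CTCF there.

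Structural loops held a larger share of the loops that rose past the fold than of the table, and CRE loops a larger share of those that fell. Of the 2095 that rose, 947 were structural, 45.2%, against a 29.5% share of structural loops in the table, and 303 were CRE loops, 14.5% against 28.4%. Of the 115 that fell, 58 were CRE loops, 50.4%, 35 were other loops, 17 dual-function and 5 structural. Because the ana/telophase and early-G1 maps of -auxin cells chose these loops, their levels there are a description. The other maps took no part in the choice by fold. A loop entered the deposited calls through any stage or treatment, however, so levels in mid-G1 and in +auxin cells are not independent of the calling.

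Structural loops that rose had medians of 1.63 in ana/telophase and 2.64 in early-G1 and went on to 2.96 in mid-G1, whereas in +auxin cells the same loops stood at 1.16, 1.28 and 1.34. Dual-function loops that rose, from 1.79 to 2.80, had a mid-G1 median of 2.61. CRE loops that rose, with a median size of 500 kb, went from 1.53 to 2.43 and stood at 2.23 in mid-G1. In +auxin cells they went from 1.62 to 2.03, with 255 of 303 higher in early-G1 there too, 84.2% against 74.2% of all CRE loops.

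CRE loops that fell were at 1.20 in prometaphase and 1.95 in ana/telophase, against 1.23 in early-G1 and 1.25 in mid-G1, so that the low level of early-G1 was found again in the next map. In +auxin cells the medians of these 58 loops from ana/telophase to mid-G1 were 1.93, 1.77 and 1.65. There 25 of 58 were higher in early-G1 than in ana/telophase, 43.1% against 74.2% of all CRE loops. Only 26 of the 58 were called as loops in any -auxin map, so the rest entered the deposited calls through +auxin maps. The 17 dual-function loops that fell showed medians of 2.55, 1.52 and 1.49 from ana/telophase to mid-G1, and 2.19, 2.23 and 1.66 in +auxin cells. The 35 other loops that fell, in contrast, were at 2.12, 1.24 and again 1.99 in mid-G1, and the 5 structural ones at 2.72, 1.61 and 3.37. Of these 5 structural loops 4 were first called in mid-G1, and 13 of the 35 other loops. Among CRE loops that fell it was 4 of 58, and 1 of 17 among dual-function loops. The stage of calling therefore fixes part of these mid-G1 levels.

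**Figure D4:**
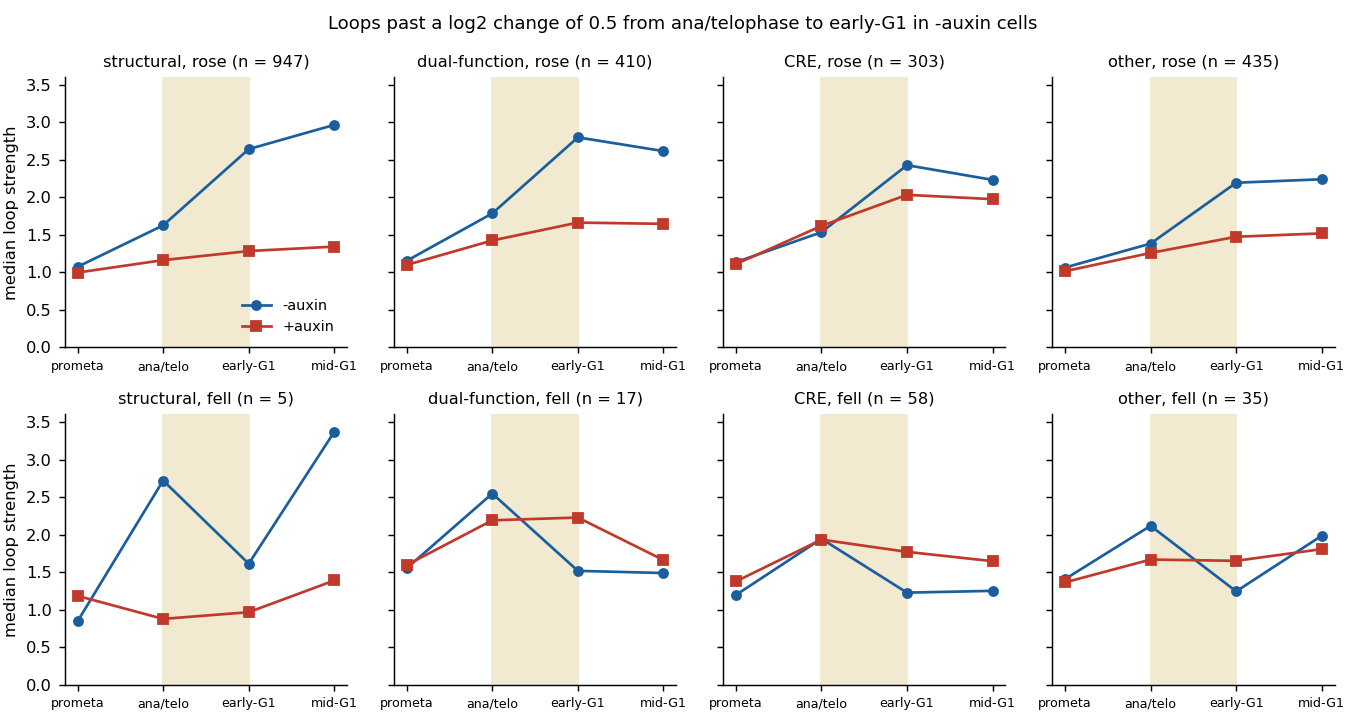
Median loop strength (observed over locally expected contacts) at 4 stages for loops that rose (top) or fell (bottom) by a log2 of at least 0.5 from ana/telophase to early-G1 in -auxin cells, by category, in -auxin (blue) and +auxin (red) maps, with the choosing step shaded. CRE and dual-function loops that fell stayed near their early-G1 level in mid-G1, 1.25 and 1.49, whereas structural and other loops that fell returned to 3.37 and 1.99. Loops first called in mid-G1 needed signal there, so part of this contrast is built in.

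CRE loops were further divided by the structural loops around them. Of the 4642, 2227 were crossed by a structural loop, with 1 anchor of the latter lying between the CRE loop's anchors and its other anchor beyond them, 862 were not crossed and lay wholly within a structural loop, and 1553 had neither relation. Crossed CRE loops changed by 0.10 (SD 0.04), enclosed ones by 0.15 (SD 0.03) and the rest by 0.14 (SD 0.03). Longer loops are more often crossed and also changed more, so the comparison was made within sizes.

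Up to 200 kb, crossed CRE loops hardly strengthened in -auxin cells. The 719 crossed loops of that size had a median log2 change of 0.03 and the 734 enclosed ones of 0.15, with the enclosed ones higher on 19 of 20 chromosomes. Loops with neither relation lay between, at 0.10 (SD 0.05) for 70 to 100 kb and 0.09 (SD 0.08) for 100 to 200 kb. At 70 to 100 kb, crossed loops were at 1.16 in ana/telophase, 1.17 in early-G1, then 1.04 in mid-G1, and enclosed loops at 1.25, 1.41 and 1.41. At 100 to 200 kb, crossed loops were at 1.49, 1.54 and 1.404, and enclosed loops at 1.63, 1.83 and 1.80. In +auxin cells both kinds changed alike in this step, by 0.14 and 0.14, with enclosed loops higher on 8 of 20 chromosomes. Loops with neither relation changed there by 0.10 at 70 to 100 kb and 0.11 at 100 to 200 kb. In -auxin cells the step after early-G1 gave -0.10 for crossed and -0.00 for enclosed loops, from maps that share early-G1 with this step. These sets hold CRE loops called only in +auxin maps, and the paper reports that structural loops often interrupt such loops. The gap between crossed and enclosed loops was not computed among loops called in -auxin cells, so the part of the calling in it is not known.

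At 200 to 300 kb crossed loops changed by 0.07 (SD 0.08), the 79 enclosed ones by 0.14 (SD 0.14) and those with neither relation by 0.10 (SD 0.07). Above 300 kb few CRE loops were enclosed, and enclosed loops did not have the larger median at 300 to 500 kb or at 500 to 1000 kb. At 300 to 500 kb the 38 enclosed CRE loops changed by 0.13 (SD 0.18), the crossed ones by 0.14 (SD 0.07) and those with neither relation by 0.19 (SD 0.11). At 500 to 1000 kb the 9 enclosed loops changed by -0.02 (SD 0.22) and the crossed ones by 0.18 (SD 0.08), and at 1000 to 2000 kb crossed loops changed by 0.22 (SD 0.15) and those with neither relation by 0.27 (SD 0.15).

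Loops are named by the size of their change among those with 10 kb summits, a strength of at least 1 in both maps and a place outside chromosomes 3 and 18. Of such structural loops, the largest rise joined chr5:138660001-138670000, at the start of BC055004, to chr5:139090001-139100000. From prometaphase to mid-G1 its strength was 3.52, 1.43, 6.19 and 4.19, so its ana/telophase value was the lowest of the 4 stages. With auxin it also rose past the fold, from 0.855 to 1.90. The second largest rise, 870 kb long, starts at chr7:62090001-62100000, which holds the start of Luzp2, and ends in a stretch without a protein-coding gene. It went from 0.524 in prometaphase to 1.08, 3.97 and 2.75, and its +auxin strengths were 0.871 in ana/telophase and 1.17 in early-G1. A loop of 1490 kb from an exon of Leprel1, at chr16:25960001-25970000, to one of Ccdc50, at chr16:27450001-27460000, went from 1.38 to 5.03 and on to 7.70, while with auxin it went from 0.929 to 1.42, a log2 change of 0.61, which also passed the fold.

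The 2 structural loops named here that fell were higher again in mid-G1. Both were first called in mid-G1, so this return is partly built in. The 880 kb loop between chr12:32050001-32060000 and chr12:32930001-32940000, both without a protein-coding gene, was at 2.89, 1.61 and 4.07 from ana/telophase to mid-G1, and with auxin at 1.78, 0.579 and 2.55. The loop of 470 kb from Fam81b to Mctp1, chr13:76350001-76360000 to chr13:76820001-76830000, was at 4.31, 2.52 and 3.09, and at 0.878 and 0.967 in +auxin cells.

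Within the same limits of summit, strength and chromosome, the dual-function loops with the largest rises were 420 to 890 kb long and were weaker in early-G1 with auxin. The largest, 610 kb long, starts over an exon of Mad2l1, which encodes the spindle checkpoint protein MAD2, at chr6:66490001-66500000, and went from 1.93 to 4.56 and then to 4.40. With auxin it went from 1.64 to 2.33 in this step. The 890 kb loop from the start of Tas1r2, a taste receptor gene, to an exon of Arhgef10l, chr4:139200001-139210000 to chr4:140090001-140100000, went from 1.89 to 4.34 and to 3.94, against 1.48 and 1.62 in +auxin cells.

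The largest fall of a dual-function loop within those limits was in the major histocompatibility complex, between the starts of Tapbp, which encodes the peptide-loading factor tapasin, and Zbtb22 at chr17:34050001-34060000 and those of Clic1 and Msh5 at chr17:35180001-35190000. Its strength from ana/telophase to mid-G1 was 2.45, 1.18 and 1.49, and in +auxin cells 2.19, 2.06 and 1.32. The loop from the start of Ddx24, an RNA helicase gene, to that of Glrx5, a gene for a mitochondrial glutaredoxin of iron-sulfur cluster assembly that erythroid cells need for haem synthesis, chr12:104660001-104670000 to chr12:106270001-106280000, went from 3.26 to 1.83 and was at 2.88 in mid-G1. Without CTCF it was at 2.74 and 2.65. A loop of 400 kb between the starts of Tacc1 and of Whsc1l1, a histone methyltransferase gene, chr8:26310001-26320000 to chr8:26710001-26720000, went from 2.05 to 1.18 and stayed at 1.19 in mid-G1, whereas with auxin it was at 2.72, 2.34 and 2.28. The Tacc1 loop was not called in any -auxin map.

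Of the CRE loops within those limits, the largest rise joined the start of BC024659, at chr13:41340001-41350000, to that of Hivep1, a gene for a zinc finger transcription factor, at chr13:42140001-42150000. It went from 1.38 to 4.62 and was at 2.31 in mid-G1, while with auxin it went from 1.08 to 3.03. A loop of 460 kb from the start of Rbpj, the gene for the DNA-binding effector of Notch signalling, at chr5:53980001-53990000, to an exon of Stim2, which encodes a calcium sensor of the endoplasmic reticulum, at chr5:54440001-54450000, went from 1.05 to 3.06 and stayed at 2.96. With auxin it went from 1.62 to 2.49. The rise of both loops was thus seen in either treatment.

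Among CRE loops that fell, the 500 kb loop from the start of Crlf2, a cytokine receptor gene, at chr5:109980001-109990000, was at 2.92 in ana/telophase, then at 1.60 and 1.58 in the G1 maps, and in +auxin cells at 2.60, 1.57 and 2.41. The 130 kb loop from an exon of Epb4.1l3 to one of Zfp161, chr17:69610001-69620000 to chr17:69740001-69750000, was at 2.01, 1.11 and 1.29, and with auxin at 2.1001, 1.47 and 2.06, so both loops fell past the fold in either treatment. Both were listed as not called in any -auxin map. The loop between the start of Rragc, a gene for a Rag GTPase of the mTORC1 pathway, and an exon of Gnl2, chr4:123590001-123600000 to chr4:124710001-124720000, fell from 2.32 to 1.31 and was at 2.84 in mid-G1, and with auxin it was at 2.39 and 2.19. Among other loops, that from the start of Kdm3a, a histone demethylase gene, to an exon of Ptcd3, chr6:71550001-71560000 to chr6:71840001-71850000, fell from 3.29 to 1.75 and further to 1.38, while with auxin it was at 4.39, 3.51 and 2.77.

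Lists of genes were placed on the loops by the transcription starts in the summit bins of their anchors. Of all loops 9164 held a protein-coding start at an anchor, with a median log2 change of 0.18 (SD 0.02), against 0.26 (SD 0.02) for the 7206 without one. The list of erythroid regulators and globin or haem genes, with 34 genes at 117 loops, had a median change of 0.15 (SD 0.14), 7 risen, 5.98%, and 4 fallen, 3.42%, beside 12.8% and 0.703% of all loops. The median strength of its loops was 1.71 before and 1.88 after this step.

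The other lists had fewer loops, and counts past the fold are to be read against the 12.8% risen and 0.703% fallen of all loops. Genes of the CTCF and cohesin machinery lay at 22 loops, with a median of 0.27 (SD 0.18), 5 risen, 22.7%, and 1 fallen. Mitosis genes lay at 42 loops, with a median of 0.09 (SD 0.22), 0 risen and 1 fallen, and genes of G1 progression at 48, with 0.08 (SD 0.23), 6 risen, 12.5%, and 2 fallen. Hox genes, silent in most blood cells beyond the progenitors, lay at 23 loops, with 0.31 (SD 0.06), 3 risen, 13.0%, and 0 fallen, and ribosomal protein genes at 98, with 0.06 (SD 0.18), 8 risen, 8.16%, and 1 fallen. The risen shares of the G1 and Hox lists lay near that of all loops.

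At single erythroid genes, loops past the fold went either way, and those of Foxo3 and of Cbfa2t3 went both ways. The loop of 1670 kb between the starts of Pcbp1 and of Gata2, which encodes the GATA factor of blood progenitors, on chromosome 6, had a strength of 2.78 in ana/telophase and 0.850 in early-G1, a log2 change of -1.71, and stood at 1.77 in mid-G1. With auxin it was at 3.61 and 1.87, so it was lower in early-G1 in both treatments. Foxo3, the gene of a forkhead factor of red cell maturation, had 3 CRE loops past the fold. Its 1400 kb loop went from 1.93 to 1.20, its 230 kb loop to the start of Snx3 from 2.102 to 1.38, and its 760 kb loop to the start of Cd164 from 2.08 to 3.03. With auxin the 1400 kb loop also fell, from 2.06 to 1.11, whereas the other two stood at 2.38 and 2.62 and at 2.41 and 2.37.

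For Cbfa2t3, which encodes the corepressor ETO2, the 1100 kb dual-function loop went from 1.66 to 3.18 and the 340 kb CRE loop to Ankrd11 from 1.54 to 1.03. With auxin the former went from 1.69 to 2.66 and the latter from 1.71 to 2.30, so the CRE loop was lower in early-G1 in -auxin cells and higher in +auxin cells. Cpox, which encodes the haem synthesis enzyme coproporphyrinogen oxidase, had a 1050 kb loop that went from 1.94 to 2.98, against 1.32 and 1.45 with auxin.

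The starts of Runx1, the gene of a transcription factor required for definitive blood formation, anchored 4 structural loops that rose. Their sizes were 300, 600, 760 and 850 kb, and their other anchors lie where no protein-coding gene is annotated. The 760 kb loop went from 1.46 to 2.61 and the 600 kb loop from 1.22 to 1.88. In +auxin cells the 600 kb loop was at 0.779 and 0.825 and the 850 kb loop at 0.966 and 0.716, whereas the 300 kb loop went from 1.62 to 2.28 and the 760 kb loop from 1.11 to 1.88. The loops share an anchor gene and are not independent. Of the erythroid loops past the fold, that of Gata2, the 1400 and 760 kb loops of Foxo3, the 340 kb loop of Cbfa2t3 and the 300 kb loop of Runx1 were not called in any -auxin map.

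**Figure D5:**
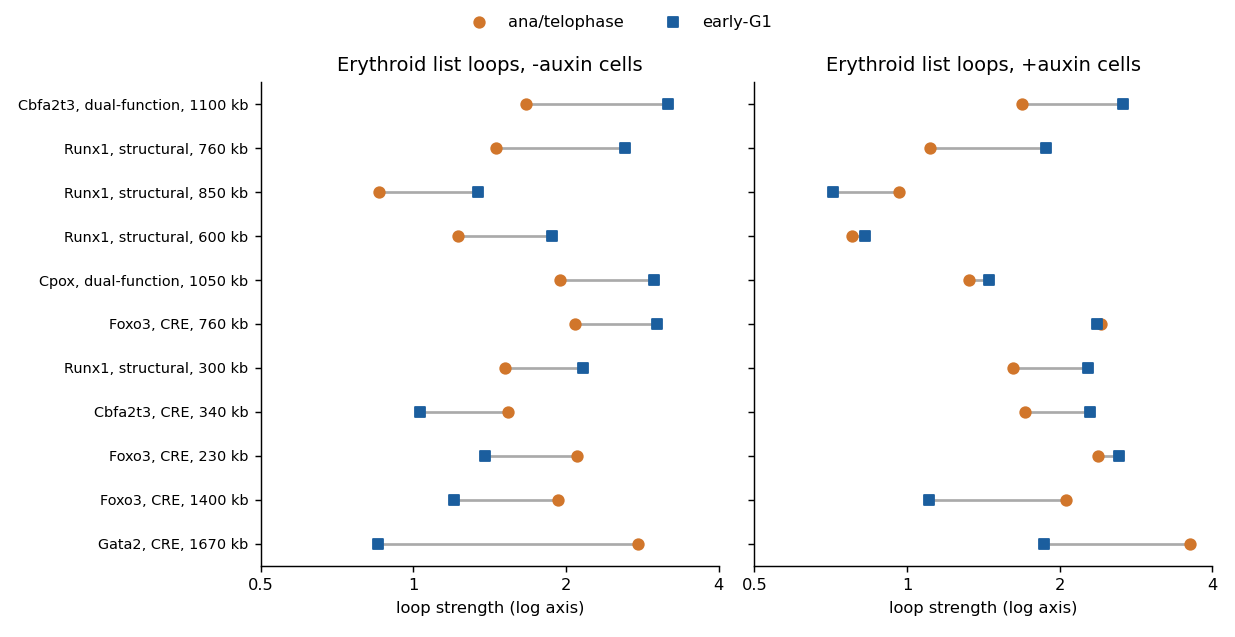
Loop strength (log axis) in ana/telophase (circles) and early-G1 (squares) for the 11 loops of the erythroid gene list past a log2 change of 0.5 in -auxin cells, named by gene, category and size, in -auxin (left) and +auxin (right) cells. In -auxin cells 7 loops lie higher in early-G1, among them the 1100 kb loop of Cbfa2t3 at 3.18, and 4 lie lower, among them the Gata2 loop at 0.850.

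Genes of G1 progression showed loops past the fold of both signs, chosen after their values were seen. The 1880 kb CRE loop of Cdkn1b, the gene of the cyclin-dependent kinase inhibitor p27, went from 2.07 to 4.23 and was at 2.97 in mid-G1, and with auxin it went from 2.93 to 5.61. The 560 kb CRE loop from E2f3, a gene of the E2F family that drives entry into S phase, to Uqcrfs1 went from 1.74 to 3.13, and with auxin from 1.78 to 2.65. A 160 kb dual-function loop of Cdkn1a, the gene of the inhibitor p21, went the other way, from 2.55 to 1.73, and with auxin from 1.72 to 2.48; it was not called in any -auxin map. Of the Hox genes, Hoxc10 had a 350 kb dual-function loop to the start of Gpr84 that went from 2.24 to 3.78, and with auxin it was at 2.05 and 2.01.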

How the data were processed

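The authors made in situ Hi-C libraries from G1E-ER4 cells. Reads were aligned by the authors with Bowtie2 to mm9, replicates were merged, and boundaries and loops were called on the merged maps. The deposited boundary strength, ΔIS, is a signal that is never negative, and loop strength was deposited as a ratio, observed over locally expected contacts, with summits of 10 kb (12817 loops) or 25 kb (3553). Categories, clusters and stages of first detection are the authors' labels. Changes were computed as log2(early-G1 / ana/telophase) without a pseudocount. Depth is not in the tables used, and their single merged value per stage allows no test; maps of single replicates were not analysed here.

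CTCF consensus matches and GENCODE vM1 protein-coding genes were placed on NCBIM37, and no call lay past a chromosome end. The gene lists covered erythroid regulators, CTCF and cohesin, mitosis, G1 progression, Hox and ribosomal protein genes, and 1 gene of the erythroid list is not reported here. Named loops are the 3 largest rises and falls of each category and the erythroid list loops past the fold, those with printed sequences are among the largest rises of structural loops with a single match at each anchor, the G1 progression and Hox loops were chosen after their values were seen, and named boundaries the 2 largest of each of clusters 1 to 4, of which some are printed. Chromosome 3, which carries a translocation, and chromosome 18 were left out of the naming by size. Members and lists were chosen with earlier results of these data known. The statistics were tested on simulated data. Computation was in Python 3.11.15 (pandas 2.3.3, numpy 2.4.6, matplotlib 3.10.9, scipy 1.17.1).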

Additional observations from a re-analysis of the deposited data

How the results depend on the processing

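No paired analysis was possible because the columns of the tables used are of merged replicates and carry no replicate number; maps of single replicates were not analysed here. Depth could not be varied either, and the contacts behind a value are unknown. Of 726 recomputed values, 480 left out 1 chromosome each and all of these stayed within the SD over chromosomes or within 1.5 times a share. Of the other 246, 179 did so too, 66 moved further and 1 turned its sign. In the following, change means the median log2 change, and the cause of a move was not tested where the construction does not show it.

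A pseudocount of 0.1 brought the change of boundaries to 0.45 for all, 0.48 for cluster1, 0.58 for cluster2 and 0.46 for cluster3, the share risen to 14.2% in cluster4 and 9.04% in cluster5, and the share fallen to 2.635%. The share of boundaries fallen was 1.235% with a strength of at least 0.1 in both maps, where 12.5% of cluster5 rose, and 4.58% without cluster5. At a threshold of 1 the shares risen were 17.99% for all and 25.5%, 15.6%, 15.0%, 16.6% and 19.5% for clusters 1 to 5, and the share fallen 4.09%. Near neither feature the change was 0.49 at 10 kb, and near a start alone 0.50 at 40 kb.

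For loops, a pseudocount of 0.5 gave changes of 0.17 for all, 0.23 for structural, 0.18 for dual-function, 0.094 for CRE and 0.16 for other loops, and shares risen of 6.23%, 10.3%, 5.76%, 2.71% and 5.74% in the same order, with 0.324% fallen. Loops with 10 kb summits changed by 0.23 (structural 0.32), and those with 25 kb summits by 0.18 (structural 0.23, dual-function 0.17, other 0.18), with 7.91% risen (structural 9.90%, other 7.63%) and 0.338% fallen. Loops called in -auxin cells changed by 0.24, CRE loops among them by 0.16, and by 0.12 at 100 to 200 kb and 0.14 at 200 to 300 kb. The ratio of sums gave 0.25 for all and 0.34 for structural loops. Minus the median change of other loops, CRE loops turned to -0.10, dual-function loops stood at 0.0099 and structural loops at 0.076. At a threshold of 0.25 the shares risen were 44.6% for all, 58.2% for structural, 45.5% for dual-function, 29.4% for CRE and 44.9% for other loops, with 3.58% fallen. At 1 they were 0.825%, 1.55%, 0.415%, 0.388% and 0.795%, with 0.0733% fallen. With 10 kb summits alone, structural loops changed by 0.36 at 300 to 500 kb, 0.42 at 500 to 1000 kb and 0.53 at 1000 to 2000 kb, dual-function loops by 0.31 at 300 to 500 kb, and other loops by 0.25 and 0.38 at 300 to 500 and 500 to 1000 kb.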

Other observations

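Structural loops that share an anchor were set against each other, a comparison chosen after seeing the data. In 1642 pairs of structural loops with upstream or downstream anchors within 10 kb of each other and at least 2 times different in size, the longer loop had the larger log2 change from ana/telophase to early-G1 in 839, 51.1%, and the median difference was 0.01. The median sizes were 140 and 470 kb, and the median changes 0.31 for the shorter and 0.31 for the longer loops. By chromosome the share in which the longer loop changed more ran from 31.4% to 67.2% and was over 50% on 8 of 20. The larger change of long structural loops over the whole table was therefore not seen in these pairs, which hold 2194 of the 4837 structural loops.

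Loops without a protein-coding transcription start at either anchor had the larger median change in every category. The values were 0.31 (SD 0.02) for 2991 structural loops without a start against 0.27 (SD 0.03) for 1846 with one, 0.28 (SD 0.04) for 963 dual-function loops against 0.20 (SD 0.03) for 2407, 0.16 (SD 0.03) for 1041 CRE loops against 0.11 (SD 0.03) for 3601, and 0.22 (SD 0.03) for 2211 other loops against 0.21 (SD 0.04) for 1310. The last of these differences is smaller than its SD over chromosomes.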
